A study of Homo sapiens with 6 samples.

Results

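The ERBB receptors, their ligands and 2 proteins that bind the receptors inside the cell were followed in MDA-MB-453 cells. The group was taken by gene name from the deposited table of counts and held 10 of its 33451 genes: the receptors EGFR, ERBB2, ERBB3 and ERBB4, the ligands AREG, HBEGF, TGFA and NRG1, the adaptor GRB7 and the inhibitor ERRFI1. This established cell line comes from a human breast cancer and has luminal features, and 25(OH)D (25-hydroxyvitamin D) is the main circulating form of the vitamin. Cells were kept for 5 days in medium containing either 25(OH)D at 100 nM or only its solvent, alcohol (control), and 3 mRNA libraries from each group were sequenced. The work asked how this concentration of 25(OH)D changed the transcriptome of the cells, all of which came from 1 cell line without any genetic change. The paper calls the libraries biological replicates and does not say how the cultures were separated, so p-values measure the spread between these libraries.

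ERBB receptors are tyrosine kinases of the cell surface that pair with each other when a ligand binds, and the pairs then switch on the RAS and ERK kinases and PI3-kinase. ERBB2 has no known ligand and acts as a partner of the others, while ERBB3 has little kinase activity of its own and is a strong docking site for PI3-kinase. Ligands of the EGF family, such as amphiregulin, are made as membrane proteins and cut free by metalloproteases, whereas the neuregulins bind ERBB3 and ERBB4. In breast cancer the family is best known for the amplification of ERBB2.

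The libraries held between 33268860 and 40928176 counts. Pairs of replicates differed by more than counting noise (chi-square per gene between 3.97 and 12.1), so no library appeared to have been deposited more than once. No fold is given for a gene with at most 3 counts in every library of a group, which equals 0.0720 to 0.0921 CPM (counts scaled to a common library size, here with TMM factors). The mitochondrial share of counts was 7.85% to 7.99% in control and 8.89% to 9.24% in 25(OH)D, and the part of this difference in the results below was not tested. Of the 9 luminal epithelial markers all were tested, with 4 called higher and 4 lower (88.9% called against 33.8% of all genes tested). Their summed level was 11961 to 12304 CPM in control and 9523 to 9726 CPM in 25(OH)D. Of the 11 markers of blood, stromal, endothelial and basal cells 10 were listed, with CDH5 absent, and CD3E had 0 counts in 5 of the 6 libraries. Of these 3 were tested and 2 called lower, beside 16.5% lower over all genes tested. The remaining tested marker went the other way (log2 1.21) and was not called. The 2 called lower were COL1A1 (1119 to 1604 counts) and the basal factor TP63 (12, 26 and 19 counts in control and 3, 2 and 2 in 25(OH)D). The filter kept TP63 through its control libraries alone, where it was high. The listed markers of these lineages summed to 37.1 to 39.5 CPM in control and 33.4 to 35.1 CPM in 25(OH)D, nearly all of it COL1A1. Without COL1A1 the sum was 0.793 to 1.37 CPM and 0.767 to 1.39 CPM, so these ranges overlapped. The part of these marker differences in the results was not tested.

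Culture with 25(OH)D was accompanied by a 16.9-fold rise of AREG, small rises of ERBB2 and ERBB3, a fall of ERRFI1 and a fall of the rare ERBB4 transcript. Of the 10 genes, 8 passed the low-count filter and were tested. At an adjusted p under 0.05 (edgeR's quasi-likelihood test, adjusted by Benjamini-Hochberg over all 18183 genes tested), 3 of the 8 were called higher, 2 lower and 3 neither, while 17.3% of all genes tested were called higher and 16.5% lower, which makes 33.8% in either direction. At the limits that the study used, a log2 fold change beyond 1 with an unadjusted p under 0.05, AREG was higher and ERBB4 lower, and 6.65% of all genes tested passed (4.02% higher and 2.63% lower). The scaled values of the groups did not overlap for 5 of the 8 tested genes (ERBB2, ERBB3, ERBB4, AREG and ERRFI1), compared with 45.7% of all genes tested. ERBB4 passed the filter through its control libraries alone, all of which were above the filter limit.

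**Figure D1:**
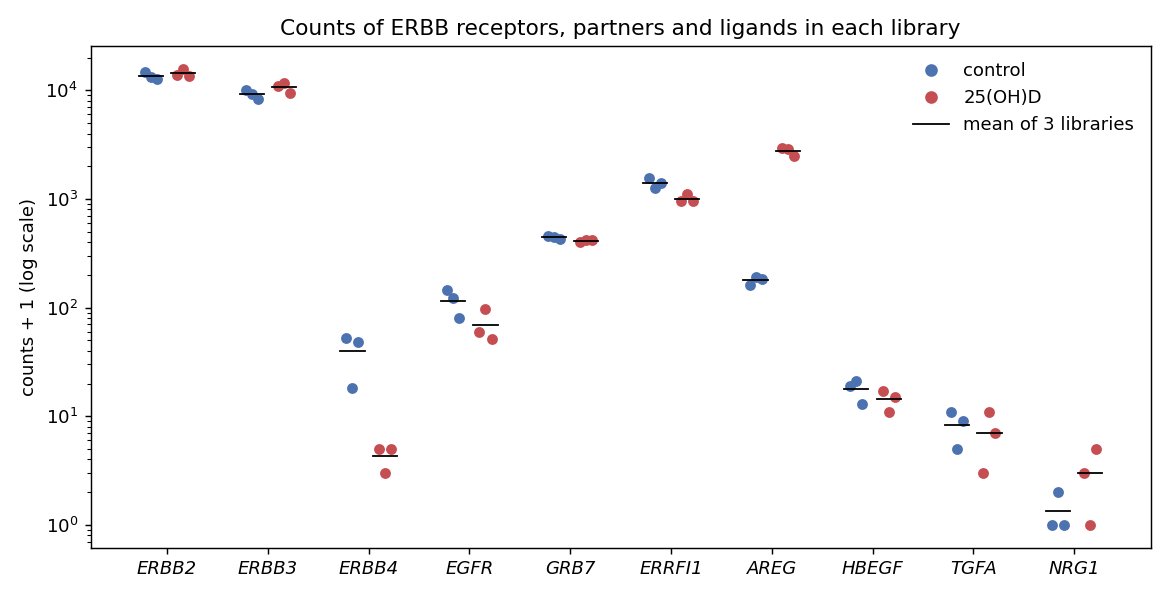
Counts of the 10 genes in each of the 6 libraries (vertical axis, counts plus 1 on a log scale), with control in blue, 25(OH)D in red and a line at the mean of 3 libraries. The AREG counts lie between 162 and 192 in control and between 2475 and 2968 in 25(OH)D, while ERBB4 counts lie between 17 and 52 in control and between 2 and 4 in 25(OH)D.

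Among the receptors, ERBB2 (chr17:39687914-39730426, plus strand, GRCh38) was the most abundant. Its counts in control were 14620, 13164 and 12823 (libraries 1 to 3), and those in 25(OH)D were 13921, 15794 and 13566. These counts overlapped between the groups, but once they were scaled to the library sizes the 3 libraries with 25(OH)D (396, 411 and 416 CPM) all lay above the control libraries (351, 348 and 348 CPM). The mean was 349 ± 1.71 CPM in control and 408 ± 10.5 CPM in 25(OH)D (SD, n = 3). ERBB2 rose 1.17-fold (95% interval 1.11 to 1.23, log2 fold change 0.22, SE 0.0353), with an adjusted p of 0.000189 in edgeR's quasi-likelihood test.

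In the annotation used for counting, 571 exon bases of ERBB2 (5.53% of its exon length) also belong to MIEN1 and 194 to PGAP3, both on the opposite strand. The paper names a stranded library kit, but the sources used here do not say whether strand was used in counting. MIEN1 and PGAP3 were far less abundant, with at most 1685 and 414 counts in a library, and both were called higher as well.

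ERBB3 (chr12:56079857-56103505, plus strand), the preferred partner of ERBB2, had counts of 10025, 9266 and 8368 in control and of 11069, 11565 and 9510 in 25(OH)D. Scaled to library size, all 3 libraries with 25(OH)D (315, 301 and 292 CPM) exceeded all 3 control libraries (241, 245 and 227 CPM). The mean rose from 238 ± 9.25 to 303 ± 11.6 CPM (SD, n = 3), a 1.27-fold rise (95% interval 1.19 to 1.36, log2 0.35, SE 0.0425), with an adjusted p of 1.73e-05 in edgeR's quasi-likelihood test. ERBB3 shares 31 exon bases with the unnamed gene RP11-603J24.9 on the same strand.

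ERBB4 (chr2:211375717-212538841, minus strand), a neuregulin receptor, was close to the limit of detection. Counts of 52, 17 and 47 in control stood against counts of 4, 2 and 4 in 25(OH)D, so that every library with 25(OH)D lay below every control library. The level fell from 0.992 ± 0.470 to 0.0962 ± 0.0385 CPM (SD, n = 3), which was a fall of 90.2% (log2 -3.35, SE 0.563, 95% interval -4.56 to -2.14) with an adjusted p of 0.000325 in edgeR's quasi-likelihood test. The filter kept ERBB4 through its control libraries alone, where it was high, and its counts in 25(OH)D were close to the floor. Control library 2 held less ERBB4 than the other 2 control libraries. On log2(RPKM + 1), a scale that compresses genes at so low a level, the fall was not called.

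EGFR (chr7:55019021-55211628, plus strand), the receptor for amphiregulin, was scarce in these cells. Its counts were 143, 122 and 79 in control and 58, 96 and 50 in 25(OH)D, and 25(OH)D library 2 lay above control library 3 (2.50 against 2.15 CPM), so the groups overlapped. EGFR shares 186 exon bases with EGFR-AS1 on the opposite strand, which had at most 11 counts. The means were 2.94 ± 0.692 CPM in control and 1.89 ± 0.525 CPM in 25(OH)D (SD, n = 3). The log2 difference of -0.63 (SE 0.238, 95% interval -1.14 to -0.11) had an unadjusted p of 0.0201 and an adjusted p of 0.0576 in edgeR's quasi-likelihood test, and was therefore not called. In edgeR's quasi-likelihood test the adjusted p was 0.0178 without control library 3, 0.0200 without 25(OH)D library 2 and 0.168 to 0.191 without any other library. It also fell under the threshold with the replicate number as a block (0.0385), with upper-quartile factors (0.0408), with library sizes alone (0.0439) and with no filter (0.0148).

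Since these are whole cultures, fewer cells with a transcript and less of it in each cell cannot be told apart.

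To compare the receptors with each other, levels were taken per gene length as RPKM, that is counts divided by exon length and by the library's total. ERBB2 made up 54.7%, 54.1% and 56.0% of the summed RPKM of the 4 receptors in control and 51.2%, 53.2% and 54.4% in 25(OH)D. ERBB3 made up 44.7%, 45.4% and 43.6% in control and 48.6%, 46.5% and 45.4% in 25(OH)D. Together they left less than 1% to the other receptors, with EGFR at a mean of 0.380% in control and 0.203% in 25(OH)D and ERBB4 at 0.124% and 0.00991%.

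The share of ERBB3 was higher by 2.27 percentage points with 25(OH)D and the shares of EGFR and ERBB4 were lower by 0.177 and 0.114 points, with no overlap between the groups, as seen by a two-sided exact permutation test with p = 0.1 for each, the smallest value that 3 libraries against 3 can give (adjusted over the 4 receptors, 0.133). The share of ERBB2 overlapped between the groups (exact p = 0.2, adjusted 0.2). None of the 4 shares could therefore be called different with this number of libraries. Without 25(OH)D library 1 the difference in the share of ERBB3 was 1.40 points, and over all 6 omissions it ran from 1.40 to 2.97 points.

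GRB7 (chr17:39737927-39747291, plus strand) encodes an adaptor with an SH2 domain that binds phosphorylated ERBB2, and the gene lies next to ERBB2. Its counts were 453, 444 and 426 in control and 397, 422 and 418 in 25(OH)D, or 11.4 ± 0.456 and 11.7 ± 0.991 CPM (SD, n = 3). The groups overlapped, and the log2 difference of 0.037 (95% interval -0.16 to 0.24, adjusted p = 0.800 in edgeR's quasi-likelihood test) changed sign with the scaling of the libraries. The interval leaves room for a change of up to 1.18-fold.

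ERRFI1 (chr1:8004404-8026308, minus strand), also called MIG6, binds the kinase domains of ERBB receptors and blocks them. Its counts were 1569, 1254 and 1398 in control and 954, 1105 and 960 in 25(OH)D. All 3 libraries with 25(OH)D (27.1, 28.7 and 29.5 CPM) lay below all 3 control libraries (37.7, 33.2 and 38.0 CPM). ERRFI1 fell by 21.6%, from 36.3 ± 2.70 to 28.4 ± 1.19 CPM (SD, n = 3, log2 -0.35, SE 0.0692, adjusted p = 0.00118 in edgeR's quasi-likelihood test).

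**Figure D2:**
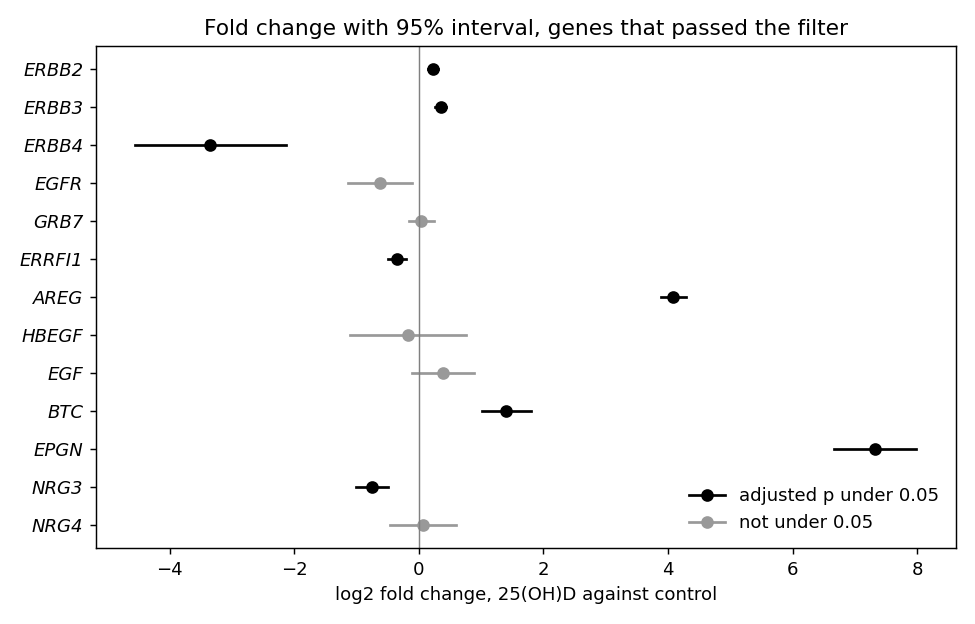
Log2 fold change of 25(OH)D against control (horizontal axis) with its 95% interval for the 8 tested genes of the group and 5 further ERBB ligands, drawn in black where the adjusted p was under 0.05 and in grey otherwise. The ligands EPGN (7.33) and AREG (4.08) lie far to the right, whereas ERBB2 (0.22) and ERBB3 (0.35) lie just above 0.

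AREG (chr4:74445134-74455009, plus strand) encodes amphiregulin, a ligand of EGFR that drives growth of the ducts in the normal mammary gland. Its counts were 162, 192 and 184 in control and 2968, 2899 and 2475 in 25(OH)D. The lowest library with 25(OH)D, at 75.4 CPM, was far above the highest control library, at 5.08 CPM. The mean rose from 4.65 ± 0.663 to 78.6 ± 5.06 CPM (SD, n = 3), which was a 16.9-fold rise (95% interval 14.7 to 19.4, log2 4.08, SE 0.0929), with an adjusted p of 3.27e-13 in edgeR's quasi-likelihood test. No other listed gene shared exon bases with AREG.

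HBEGF (chr5:140332843-140346631, minus strand), heparin-binding EGF-like growth factor, had counts of 18, 20 and 12 in control and of 16, 10 and 14 in 25(OH)D. The groups overlapped, and the log2 difference was -0.18 with a wide interval of -1.11 to 0.75 (adjusted p = 0.792, edgeR's quasi-likelihood test). The interval runs from 0.464-fold to 1.68-fold of control, so changes within it were not detectable at this depth.

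TGFA (chr2:70447280-70554193, minus strand), transforming growth factor alpha, had counts of 10, 4 and 8 in control and 2, 10 and 6 in 25(OH)D and did not pass the filter. When no filter was applied, its log2 difference was -0.16 with an interval of -1.79 to 1.47 (adjusted p = 0.929, edgeR's quasi-likelihood test). NRG1 (neuregulin 1) had 0, 1 and 0 counts in control and 2, 0 and 4 in 25(OH)D, of which only the last was above the floor of 3 counts. No fold is given for NRG1, and a difference was not detectable at this depth.

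Levels per length put AREG in another place among the 10 genes. In control the order of mean RPKM was ERBB2 (34.3 ± 0.280), ERBB3 (27.9 ± 1.21), ERRFI1 (8.79 ± 0.634), GRB7 (3.21 ± 0.124) and AREG (2.87 ± 0.403; SD, n = 3), and the libraries of GRB7 and AREG overlapped. EGFR and HBEGF followed at 0.238 and 0.144 RPKM and overlapped as well, as did ERBB4 and TGFA at 0.0772 and 0.0384 RPKM, with NRG1 last.

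In 25(OH)D the order was AREG (46.9 ± 2.89), ERBB2 (38.9 ± 1.07), ERBB3 (34.4 ± 1.33), ERRFI1 (6.69 ± 0.286) and GRB7 (3.20 ± 0.255 RPKM, SD, n = 3), none of which overlapped with the next. EGFR and HBEGF, at 0.149 and 0.124 RPKM, overlapped, and so did ERBB4 and NRG1 at the lower end. AREG stood at 0.0694, 0.0913 and 0.0899 of the RPKM of ERBB2 in control, and at 1.34, 1.15 and 1.14 of it with 25(OH)D. The lengths used cover all annotated exons of a gene, 10321 bases for ERBB2 and 1648 for AREG, and not a single transcript. The order of AREG and ERBB2 in 25(OH)D may depend on this choice, and other lengths were not tested. Among all listed genes the mean level of AREG was at percentile 72.4 in control and 97.0 in 25(OH)D.

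**Figure D3:**
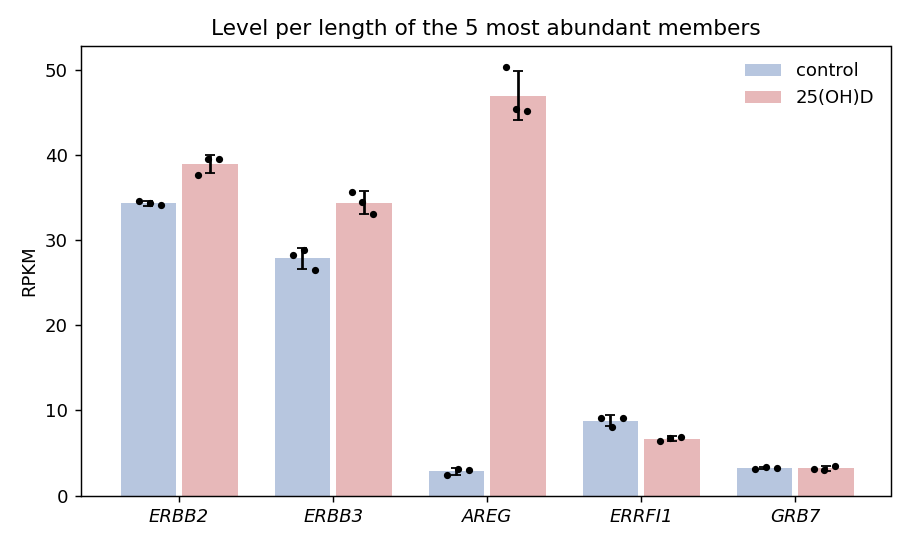
Mean RPKM (bars, axis from 0) of the 5 most abundant genes of the group, with the SD of 3 libraries as error bars and each library as a point, control in blue and 25(OH)D in red. AREG passes from 2.87 to 46.9 RPKM, above ERBB2 at 38.9 RPKM.

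The other 7 ligands of the family were read from the same fit. Of these, 5 were tested, with BTC and EPGN higher, NRG3 lower and EGF and NRG4 not called (60.0% called against 33.8% of all genes tested). This list was chosen with earlier results of these data known, so its share called is a description. The filter kept EPGN through its 25(OH)D libraries alone, where it was high. EPGN, epigen, an EGFR ligand, had 4, 0 and 2 counts in control and 324, 323 and 288 in 25(OH)D (0.0501 ± 0.0482 and 8.82 ± 0.408 CPM, SD, n = 3). The 161-fold rise of EPGN (95% interval 102 to 254, log2 7.33, SE 0.307, adjusted p = 2.01e-10 in edgeR's quasi-likelihood test) rests on 6 counts in all of control.

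BTC, betacellulin, which binds EGFR and ERBB4, had 64, 73 and 68 counts in control and 148, 214 and 137 in 25(OH)D, with no overlap. BTC rose 2.64-fold (95% interval 2.01 to 3.47, log2 1.40, SE 0.183, adjusted p = 3.37e-05 in edgeR's quasi-likelihood test). NRG3, neuregulin 3, a ligand of ERBB4, went the other way, with 303, 305 and 321 counts in control and 168, 186 and 151 in 25(OH)D. The fall of NRG3 was 40.7% (log2 -0.75, SE 0.118, adjusted p = 0.000179 in edgeR's quasi-likelihood test). NRG3 shares 78 exon bases with NRG3-AS1 on the opposite strand, which had at most 15 counts.

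EGF had 57, 92 and 98 counts in control and 96, 111 and 91 in 25(OH)D (log2 0.39, 95% interval -0.11 to 0.88, adjusted p = 0.223 in edgeR's quasi-likelihood test). NRG4 had between 37 and 63 counts in all libraries (log2 0.073, adjusted p = 0.853 in the same quasi-likelihood test of edgeR), and 38.1% of its exon bases are shared with FBXO22 on the opposite strand. EREG, epiregulin, had 2, 0 and 2 counts in control and 0, 0 and 6 in 25(OH)D, and NRG2 between 5 and 12 counts throughout, so neither was tested.

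In RPKM over the 11 ligands, AREG made up 45.7%, 49.2% and 47.8% of the ligand transcripts in control, against 85.7%, 84.3% and 84.8% in 25(OH)D. EPGN came next in 25(OH)D with 8.50% to 8.97%. NRG3 was second in control with 25.4% to 27.8% and made up 1.58% to 1.76% in 25(OH)D. These are shares of a sum that rose with AREG, while NRG3 itself went from 1.60 ± 0.138 to 0.922 ± 0.0256 RPKM (SD, n = 3). The shares also depend on lengths that cover all annotated exons of a gene.

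The 3 ligand genes that were higher lie in 1 stretch of chromosome 4. This stretch was centred on AREG after their values were seen, so its counts are a description. Measured from the start of AREG, EPGN starts at -136.7 kb, EREG at -80.0 kb and BTC at 349.6 kb. Within 500 kb on either side of the start of AREG, 12 genes were listed and 6 tested, of which 4 were called higher and 0 lower (edgeR's quasi-likelihood test), beside 17.3% higher over all genes tested. The 4 were the ligands EPGN, AREG and BTC, for which the stretch was chosen, and PARM1. EPGN passed the filter through 25(OH)D alone. PARM1, a membrane glycoprotein gene 488.0 kb after AREG and also picked out after its values were seen, had 966, 878 and 814 counts in control and 2818, 3298 and 2439 in 25(OH)D (log2 1.81, SE 0.0621, adjusted p = 2.06e-11 in edgeR's quasi-likelihood test). EREG, between EPGN and AREG, stayed at 6 counts or fewer in every library, and MTHFD2L, upstream of EPGN, was not called (adjusted p = 0.0764 in edgeR's quasi-likelihood test).

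The 250 bases before the start sites of AREG, EPGN and EREG are shown because these 3 neighbours lie on the same strand and differed so much in count. They are given 5′ to 3′ from RefSeq (GRCh38.p14), for AREG at chr4:74444886-74445135, for EPGN at chr4:74308220-74308469 and for EREG at chr4:74364895-74365144. Capitals mark a cAMP response element (TGACGTCA), a TATA box (TATAAA) and a nuclear receptor half-site (AGGTCA, read on the other strand as TGACCT).
AREG: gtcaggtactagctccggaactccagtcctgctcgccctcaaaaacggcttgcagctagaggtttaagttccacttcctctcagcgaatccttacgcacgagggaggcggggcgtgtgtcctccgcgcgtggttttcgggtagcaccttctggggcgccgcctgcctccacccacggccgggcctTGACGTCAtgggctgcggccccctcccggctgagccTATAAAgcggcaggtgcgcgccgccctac
EPGN: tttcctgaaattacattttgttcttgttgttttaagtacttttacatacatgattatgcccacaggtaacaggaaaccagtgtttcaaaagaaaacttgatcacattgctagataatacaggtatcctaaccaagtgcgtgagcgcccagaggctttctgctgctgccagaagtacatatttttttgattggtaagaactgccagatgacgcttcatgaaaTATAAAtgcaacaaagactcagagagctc
EREG: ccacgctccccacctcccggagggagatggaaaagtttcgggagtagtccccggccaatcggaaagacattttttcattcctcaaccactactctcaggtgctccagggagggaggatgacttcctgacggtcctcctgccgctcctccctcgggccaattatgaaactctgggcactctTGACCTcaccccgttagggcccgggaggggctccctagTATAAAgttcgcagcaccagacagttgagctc

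The promoter of AREG holds TGACGTCA at base -65 and TATAAA at base -29, counted from its start site. EPGN has TATAAA at base -29, and EREG has TATAAA at base -32 and TGACCT at base -70. The search covered both strands of the whole 300-base windows, which run 50 bases past the start, and also used TGAGTCA (AP-1), GGGCGG (Sp1), CACGTG (E-box) and AGTTCA (a second half-site). Of 35116 promoters of the same length, 1.85% hold TGACGTCA, 11.5% TATAAA, 13.8% AGGTCA, 10.4% AGTTCA, 4.95% TGAGTCA, 45.0% GGGCGG and 7.26% CACGTG. AREG also holds GGGCGG on the other strand at base -9, where CCGCCC is read, BTC holds it only after its start, and the window of ERBB2 held no match to any of these motifs.

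Pairs of half-sites in direct repeat with 3 bases between them, the arrangement that the vitamin D receptor is known to bind with its partner RXR, were searched in all 4 combinations of these half-sites. A pair of AGGTCA was found in 2 of the 35116 promoters and a pair of AGTTCA in 0. The mixed pairs were found in 1 promoter (with AGGTCA first) and in 2 (with AGTTCA first), and in none of those of the ERBB ligands and receptors that had an entry. Of the 10 genes, 7 had a promoter entry, as had all of the other 7 ligands.

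**Figure D4:**
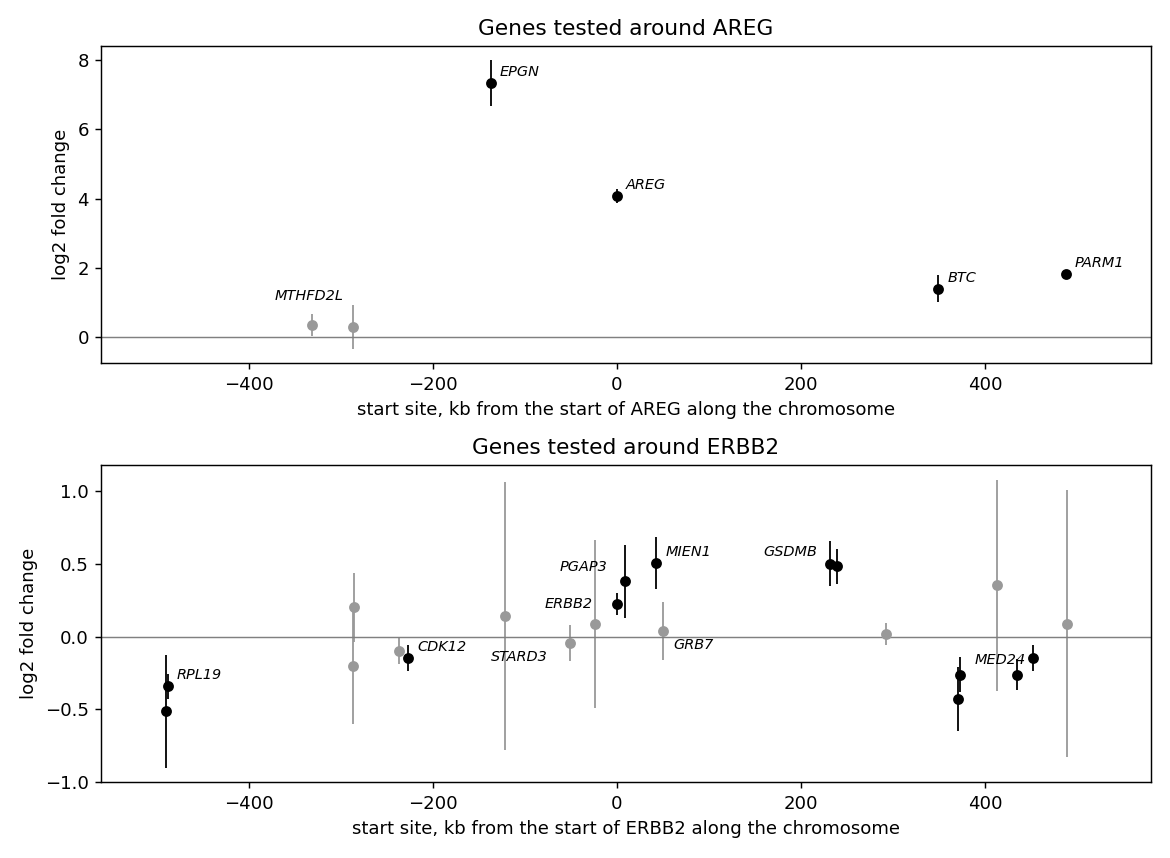
Log2 fold change with 95% interval (vertical axis) of the genes tested within 500 kb of AREG (upper panel) and ERBB2 (lower panel) against the distance of each start site in kb (horizontal axis), with adjusted p under 0.05 in black. Around AREG, EPGN, BTC and PARM1 are also higher, whereas around ERBB2 higher and lower genes are mixed and the changes are below 1 on the log2 scale.

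Around ERBB2, which is often amplified together with its neighbours in breast cancer, 22 of 36 listed genes within 500 kb were tested. Among them 5, with ERBB2 itself included, were called higher and 7 lower, beside 17.3% higher and 16.5% lower over all genes tested. From a list of 17 neighbours, chosen with earlier results of these data known, 16 were listed and 10 tested. Of these neighbours 4 were higher, 2 lower and 4 not called (60.0% called against 33.8% of all genes tested, a description). Their median log2 fold change was 0.053, compared with -0.011 over all genes tested. MIEN1, which overlaps the end of ERBB2 and encodes a promoter of cell migration, rose 1.42-fold (31.6 ± 1.51 to 45.0 ± 5.94 CPM, adjusted p = 0.000262). Of the 2292 exon bases of MIEN1, 571 are shared with the far more abundant ERBB2, and the part of this overlap in the rise was not tested. PGAP3, which overlaps the start of ERBB2 and acts on GPI anchors, had 290, 299 and 352 counts in control and 360, 414 and 350 in 25(OH)D (log2 0.38, adjusted p = 0.0213). Farther out, GSDMB, a pore-forming gasdermin, rose 1.42-fold (adjusted p = 7.94e-05) and ORMDL3, a regulator of sphingolipid synthesis, 1.40-fold (adjusted p = 1.06e-05). MED24, a Mediator subunit, fell by 16.6% (adjusted p = 0.00219) and the kinase CDK12 by 9.70% (adjusted p = 0.0157), all by edgeR's quasi-likelihood test. PNMT, the next list gene before PGAP3, and IKZF3, the next after MIEN1, had at most 6 counts in any library. TCAP and STARD3, which start at -23.7 kb and -50.8 kb and were named after their values were seen, had 30 to 54 and 1139 to 1482 counts and were not called (adjusted p = 0.836 and 0.635, edgeR's quasi-likelihood test). The neighbours of ERBB2 thus did not all move in the direction of ERBB2.

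Of 36 adaptors and proximal signalling genes, 35 were tested, with 6 higher, 9 lower and 20 not called, and a median log2 fold change of 0.00072. The share called, 42.9%, was near the 33.8% of all genes tested and is no result about the list, and 0 of these genes passed the fold limit. The docking protein GAB2 rose 1.56-fold, from 9.83 ± 0.970 to 15.4 ± 1.26 CPM (adjusted p = 0.000149). MAP2K1, the ERK kinase MEK1, rose 1.37-fold (93.0 ± 10.3 to 128 ± 1.43 CPM, adjusted p = 7.25e-05) and the adaptor NCK2 1.35-fold (22.3 ± 1.33 to 30.1 ± 1.25 CPM, adjusted p = 0.000212). All of these values are from edgeR's quasi-likelihood test.

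GRB10, an adaptor of the same family as GRB7, fell by 47.4% (7.28 ± 0.222 to 3.83 ± 0.109 CPM, adjusted p = 2.85e-05, edgeR's quasi-likelihood test). PIK3R1, a regulatory subunit through which PI3-kinase binds ERBB3, was abundant, with 12380, 11158 and 11036 counts in control and 6306, 6975 and 6152 in 25(OH)D. PIK3R1 fell by 38.4% (adjusted p = 3.06e-09, edgeR's quasi-likelihood test), with every library with 25(OH)D below every control library. PIK3R2, another regulatory subunit named after its value was seen, was not called (log2 0.027, adjusted p = 0.655 in edgeR's quasi-likelihood test). In control PIK3R2 stood at 53.5 RPKM, against 28.0 RPKM for PIK3R1. The docking protein GAB1 fell by 29.6% (21.5 ± 0.149 to 15.1 ± 0.576 CPM, adjusted p = 6.72e-05, edgeR's quasi-likelihood test), whereas its relative GAB2 rose.

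Of 29 genes that remove or restrain the receptors, all were tested, with 6 higher, 5 lower and 18 not called (median log2 0.031). The share called, 37.9%, was again near the 33.8% of all genes tested and is no result about the list. PTPRJ, a receptor-type phosphatase that acts on EGFR, had 1983, 1818 and 1632 counts in control and 3096, 3233 and 3035 in 25(OH)D, and rose 1.89-fold (adjusted p = 1.11e-08). The phosphatase PTPRK rose 1.39-fold (adjusted p = 1.70e-06) and LRIG1, a membrane protein that promotes the breakdown of ERBB receptors, 1.33-fold (adjusted p = 0.000200). CBLC, a ubiquitin ligase, fell by 36.3% (adjusted p = 0.00290) and SOCS5 by 25.0% (adjusted p = 0.0158). HSP90AA1, the chaperone on which ERBB2 protein depends, fell by 14.4%, from 8637 ± 204 to 7394 ± 179 CPM (adjusted p = 4.26e-05). These are values of edgeR's quasi-likelihood test.

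Of 12 genes that cut ligands free or carry the cutting enzymes to the surface, 8 were tested, with 5 higher, 1 lower and 2 not called (median log2 0.27, 75.0% called against 33.8% of all genes tested). The share called is a description, since the list was chosen with earlier results of these data known. The metalloprotease ADAM9 had 6055, 5392 and 5107 counts in control and 8488, 9259 and 7590 in 25(OH)D, a 1.68-fold rise (adjusted p = 2.41e-09, edgeR's quasi-likelihood test). ADAM15, another metalloprotease, rose 1.23-fold (adjusted p = 0.000228, edgeR's quasi-likelihood test). RHBDF1 and RHBDF2 encode inactive rhomboids that carry ADAM17 to the cell surface, and RHBDF1 rose 1.38-fold (adjusted p = 0.00335) while RHBDF2 fell by 20.0% (adjusted p = 0.0242, both by edgeR's quasi-likelihood test). ADAM17 itself, the main protease for amphiregulin and named here after its value was seen, had 1824, 1577 and 1615 counts in control and 1515, 1767 and 1456 in 25(OH)D and was not called (log2 0.048, SE 0.0553, adjusted p = 0.551 in edgeR's quasi-likelihood test).

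Transcripts known to follow ERK activity were split. Of 17, 16 were tested, with 5 higher, 7 lower and 4 not called (median log2 -0.26, 75.0% called against 33.8% of all genes tested), and past the fold limit 1 was higher and 4 were lower. Here too the list was chosen with earlier results of these data known, so the share called is a description. EGR1, a transcription factor of the immediate early response, had 355, 282 and 232 counts in control and 82, 81 and 72 in 25(OH)D, and fell by 70.2% (adjusted p = 5.88e-07). DUSP4, a phosphatase that inactivates ERK, had 2255, 2126 and 1808 counts in control and 746, 715 and 642 in 25(OH)D, and fell by 62.7% (adjusted p = 1.52e-09). The receptor tyrosine kinase EPHA4 fell by 58.4% (11.4 ± 1.02 to 4.75 ± 0.482 CPM, adjusted p = 1.14e-06), all by edgeR's quasi-likelihood test.

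In the other direction, EPHA2, also an ephrin receptor, rose 1.77-fold (4.19 ± 0.299 to 7.40 ± 0.908 CPM, adjusted p = 0.000228), the phosphatase DUSP5 1.38-fold (adjusted p = 0.00296) and CCND1, cyclin D1, 1.27-fold (366 ± 22.6 to 465 ± 27.2 CPM, adjusted p = 9.64e-05), again by edgeR's quasi-likelihood test. The remaining genes past the fold limit, named after their values were seen, were DUSP6, a phosphatase of ERK, with 3049, 2886 and 2908 counts in control and 1262, 1348 and 1264 in 25(OH)D (log2 -1.06, adjusted p = 3.27e-09, edgeR's quasi-likelihood test), and FOS, which had 36, 26 and 12 counts in control and 78, 90 and 84 in 25(OH)D (log2 1.91, adjusted p = 0.000183, edgeR's quasi-likelihood test). Among genes for ERK phosphatases, 2 were thus lower and 1 was higher.

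**Figure D5:**
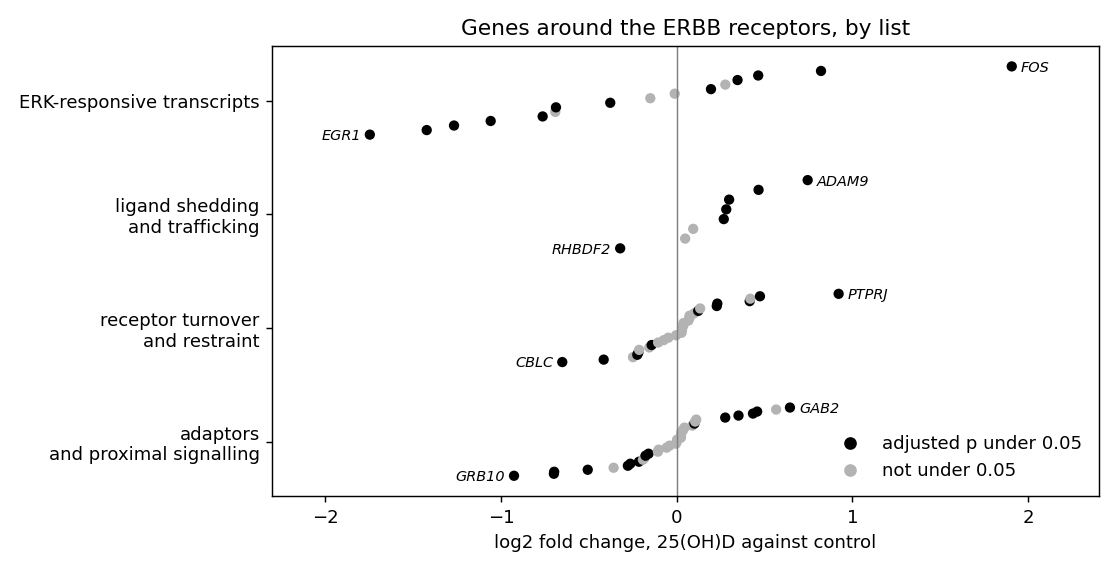
Log2 fold change (horizontal axis) of each tested gene in 4 lists around the ERBB receptors, 1 point per gene ordered by value within its list, black where the adjusted p was under 0.05. The ERK-responsive transcripts spread most widely, from -1.75 for EGR1 to 1.91 for FOS, while adaptors run from -0.93 for GRB10 to 0.64 for GAB2.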

How the data were processed

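Libraries were assigned to 25(OH)D or control from the sample labels, 3 in each group. The authors deposited counts of reads per gene without normalization, made by the sequencing company with featureCounts of Subread 1.5.1 after trimming with Trimmomatic 0.36, per the submitters' processing notes, which also name edgeR 3.12.1. The aligner and the strand setting of counting are not given in the sources used here. The authors also deposited RPKM values, which equalled each count divided by exon length and library total (largest relative difference 5.14e-15), and served only for levels between genes and for 2 alternatives. Exon positions of the 10 genes and of the other 7 ligands match GRCh38 and GENCODE 29, and those of other genes were not compared. Of the 43300 values between 1 and 9 counts, 67.0% were even and 34.6% were 2, compared with 14.8% that were 1. Whether both reads of a pair were counted is not given, so counting error may be larger than the counts imply.

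The counts were tested with edgeR 4.0.16 (R 4.3.3) by TMM scaling, the low-count filter of the package (minimum count 10), and the quasi-likelihood test without covariates, with Benjamini-Hochberg adjustment over 18183 genes. Intervals are 95% intervals from the same fit. The test was tried on simulated data (25(OH)D against control, 17951 genes, 200 changed), where it called 199 of the changed and 9 of the unchanged genes. Alternatives were RLE, upper-quartile and library-size scaling, no filter, DESeq2 1.42.0, limma 3.58.1 on log2 RPKM with 1 or 0.1 added, the replicate number as a block and the omission of each library. The members and gene lists were chosen with earlier results of these data known. All members were named, and from each list up to 3 called genes in each direction with the largest change whose higher group averaged 100 counts or more, all other ERBB ligands and the nearest list neighbours of ERBB2. Promoters were those of RefSeq (GRCh38.p14), read with Python 3.11.15 and pandas 2.3.3. Figures were drawn with matplotlib 3.10.9.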

Additional observations from a re-analysis of the deposited data

How the results depend on the processing

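AREG, ERBB2, ERBB3 and ERRFI1 kept their direction and their side of the threshold in all 14 alternatives, with log2 fold changes of 3.64 to 4.15, 0.17 to 0.25, 0.29 to 0.38 and -0.41 to -0.31. ERBB4 did so in 13, and limma on log2(RPKM + 1) left 1 gene of the group called lower, since ERBB4 then had a value of -0.096 (adjusted p = 0.0829). EGFR passed the threshold in 6 alternatives: upper-quartile factors (-0.67, adjusted p = 0.0408), library sizes alone (-0.67, 0.0439), no filter (-0.62, 0.0148), the replicate block (-0.63, 0.0385) and without control library 3 (-0.80) or 25(OH)D library 2 (-0.88). GRB7 changed sign with upper-quartile factors (-0.0049), library sizes alone (-0.0074), limma on log2(RPKM + 1) (-0.0063) and on log2(RPKM + 0.1) (-0.0084), and ran from -0.022 to 0.088 with 1 library left out. HBEGF then ran from -0.33 to 0.051. The cause was not tested. Over all genes, the 731 higher and 478 lower genes past the fold limit became 243 and 70 with limma on log2(RPKM + 1), 753 lower without a filter and 317 lower with limma on log2(RPKM + 0.1). Adding 1 or 0.1 shrinks the fold of low genes, and without a filter more genes were tested (33451). With 1 library left out, 758 to 839 were higher and 487 to 583 lower at these limits.

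No shared effect of the replicate number was seen: deviations of libraries with the same number correlated at -0.072, -0.012 and -0.046. Libraries with different numbers gave -0.016 to 0.063. Whether cultures with the same number were handled together is not known. With the replicate block, 3057 genes were called higher and 2896 lower (3138 and 3004 without it), and in the group 3 were higher and 3 lower, EGFR being the added one. Depth limits ERBB4, HBEGF, TGFA and NRG1, with at most 52 counts in a library, and 3 libraries against 3 cannot bring an exact p for the receptor shares under 0.1.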
